A study of Mus musculus with 27 samples.

Results

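The mitochondrial ribosomal protein genes were taken as every row of the raw count tables whose symbol starts with Mrpl (proteins named for the large subunit) or Mrps (proteins named for the small subunit). This gave 81 of 22855 genes in each table, of which 50 were Mrpl and 31 Mrps symbols. The symbols Mrpl23-ps1, Mrpl48-ps, Mrps36-ps1 and Mrps36-ps2 are pseudogenes, which left 77 others. Gene expression was measured by RNA-Seq of polyadenylated RNA from C57Bl/6 mice at 5 ages, neonates of postnatal day 1 (P1), 4 weeks (4W), 14 weeks (14W), 1 year (1Y) and 18 months (18M). The 12 cardiac fibroblast samples were isolated from ventricles, with atria and valves removed, and sorted for PDGFRα, with 3 samples at each of P1 and 4W and 2 at each later age. The 15 whole heart samples were 3 at each age. No sample label names a transgene, a deletion, an injury or a treatment, although the design text of the series speaks of gene expression following infarction, so the samples were read as uninjured from their labels alone. The labels give neither sex nor whether each sample was a separate animal. The authors state 3 animals per time point and 3 sets of fibroblasts from different hearts, while 2 fibroblast samples are present at each later age. The p-values below therefore measure the spread between these samples.

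The mitochondrial ribosome translates the few messages of the mitochondrial genome, which encode core subunits of the respiratory chain and of ATP synthase. Its ribosomal RNAs are transcribed inside the organelle, whereas all of its proteins are encoded in the nucleus, made in the cytosol and imported. Many of these proteins descend from bacterial ribosomal proteins and others were added in the mitochondrial lineage. The heart is rich in mitochondria, and cardiomyocyte mitochondria multiply after birth as fatty acid oxidation becomes the main source of energy. Of the 77 members without pseudogene symbols, 46 have a bacterial counterpart (30 in the large and 16 in the small subunit) and 30 are specific to mitochondria (20 and 10). The remaining member, Mrps36, is named as a ribosomal protein but is a component of the 2-oxoglutarate dehydrogenase complex.

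Total counts per sample ran from 54615898 to 76758831 in fibroblasts and from 46091271 to 67984404 in hearts. Levels are given as CPM, each gene's count relative to the total of its library, on library sizes scaled by TMM, a method that sets the typical gene equal between samples. Genes of the mitochondrial genome took 10.81 to 34.47% of the counts in hearts and 1.741 to 9.181% in fibroblasts. Summed cardiomyocyte markers were at 33210 to 40140 CPM in P1 hearts and 55120 to 83230 CPM in older hearts. In sorted fibroblasts the same markers were at 646.5 to 701.4 CPM at P1 and 13.43 to 164.5 CPM at later ages, so traces of cardiomyocyte RNA moved with age. Summed fibroblast markers were at 16200 to 27500 CPM in the sorted cells against 600.5 to 1059 CPM in hearts, as the labels state, and no marker of either list was at 0 in any group. In bulk samples, fewer cells of a type and less RNA per cell cannot be told apart.

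Mitochondrial ribosomal protein genes were moderately expressed. Per kilobase of transcript, their median level was 29.6 CPM per kb in hearts, where the median of all tested genes was 2.93, and 7.12 in fibroblasts, where it was 3.36. In hearts the highest levels per kilobase were those of Mrpl42, a mitochondria-specific protein of the large subunit (573 CPM per kb), Mrps21, a small-subunit protein with a bacterial counterpart (218), and Mrpl12, which forms part of the ribosomal stalk (211). In fibroblasts the highest were Mrpl52 (68.2), Mrpl42 (33.9) and Mrps21 (31.5), so on these lengths Mrpl42 and Mrps21 were among the 3 highest in both. The lengths are those of 1 annotated transcript per gene, while counts are per gene. For Mrpl42 that transcript has 666 bases and the merged exons 3682, so its rank depends on the length used. The pseudogene symbols were at the low end, with Mrps36-ps2 at 0.438, Mrps36-ps1 at 1.68 and Mrpl48-ps at 2.67 CPM per kb in hearts, and Mrpl23-ps1 at 0.682, Mrpl48-ps at 0.808 and Mrpl19, a large-subunit protein, at 1.4 in fibroblasts. Pseudogenes share sequence with their parent genes, so how reads were divided between them is uncertain. Both Mrps36 pseudogenes were too low to be tested in fibroblasts, which left 79 members there and 81 in hearts.

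**Figure D1:**
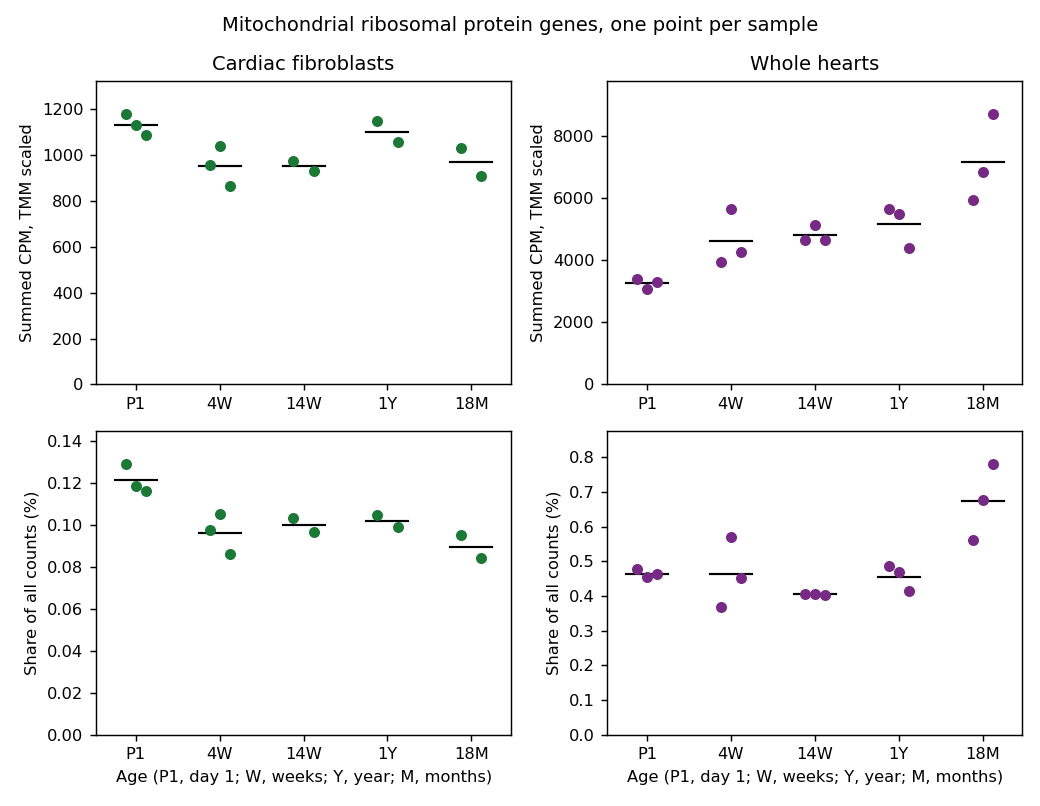
Summed level of the 81 mitochondrial ribosomal protein genes (CPM on TMM-scaled library sizes, vertical axis of the upper panels) against age, for whole hearts and sorted cardiac fibroblasts. The lower panels give their share of all counts (%). Each point is a sample and each bar is the mean of an age. Hearts lay at 3082 to 3411 at P1 and at 5945 to 8740 at 18M, with fibroblasts between 864 and 1182 throughout. On library sizes without scaling the P1 and 4W hearts were level on average and the 14W hearts lay below the P1 hearts.

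On TMM-scaled library sizes the summed level of the members was higher in older than in neonatal hearts and had no such course in fibroblasts. It was 3411, 3082 and 3291 CPM in the P1 hearts, 3938, 5646 and 4285 CPM at 4W, 4664, 5142 and 4643 CPM at 14W, 5647, 5493 and 4391 CPM at 1Y, and 5945, 6861 and 8740 CPM at 18M. All 3 hearts at 18M were above every younger heart, and all 3 at P1 were below every older one. In fibroblasts the summed level was 1134 ± 47.8 CPM at P1 (SD, n = 3), 955 ± 88.8 at 4W (n = 3), 953 ± 31.6 at 14W (n = 2), 1103 ± 65.4 at 1Y (n = 2) and 972 ± 86.6 at 18M (n = 2). As a plain share of all counts, without scaling, the heart members took 0.465% ± 0.0114 at P1 and 0.464% ± 0.101 at 4W, so the early rise appears only once the library sizes are scaled or the mitochondrial genome is left out of the total (0.529 and 0.580%). At 14W the plain share was 0.405% (0.4041 to 0.4062%), below that of every P1 heart (0.4542 to 0.4769%), and at 1Y it was 0.456% ± 0.0377. At 18M the plain share was 0.673% ± 0.110 (n = 3), above that of every younger group.

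Differences were tested gene by gene with edgeR's quasi-likelihood test in 1 fit per tissue over all ages, and a gene was called changed when its p-value was below 0.05 after Benjamini-Hochberg adjustment across every gene of that fit. Over all ages 60 of 81 members changed in hearts, where 34.3% of all genes tested did, and 6 of 79 in fibroblasts, where 19.9% did. In hearts 28 members rose and 0 fell between P1 and 4W, against 12.1% of all genes that rose, and 30 rose and 0 fell between 14W and 18M, against 4.91%. Between 4W and 14W and between 14W and 1Y no member of the heart was called higher or lower. Of all genes 0.756% and 0.389% were higher, and 153 and 105 of 17995 were lower. From P1 to 18M 63 of 81 members rose and 0 fell, against 15.6% of all genes.

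Between P1 and 4W the heart members as a set lay above the typical gene. Their median log2 fold change was 0.43, where that of all genes tested was -0.09. On library sizes without TMM scaling the members' median was -0.07, while that of all genes was -0.60. There 2 of 81 members were called higher and 9 lower, where 980 of 17995 genes tested were higher and 3797 lower. The members' median stood 0.52 above that of all genes on the log2 scale, a distance that scaling by its construction hardly changes, so whether the members rose or other genes fell depends on the scaling. Large-subunit genes (18 of 50 higher, median 0.43) and small-subunit genes (9 of 26, median 0.48) had similar medians. Genes with a bacterial counterpart (15 of 46, median 0.46) and those specific to mitochondria (12 of 30, median 0.41) also lay close together.

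The largest early rise was that of Mrps25, a mitochondria-specific protein of the small subunit. Its level was 17.0, 15.3 and 20.6 CPM in P1 hearts and 37.7, 40.4 and 37.7 CPM at 4W. The age groups did not overlap, where 18.2% of all genes tested lay wholly above P1 at 4W. The log2 fold change was 1.13 ± 0.27 (SE), or 2.19-fold (edgeR adjusted p = 0.00702). Mrpl55, a large-subunit protein, was at 38.9, 24.6 and 36.1 CPM at P1 and at 57.4, 88.6 and 67.1 CPM at 4W (2.14-fold, log2 fold change 1.10 ± 0.21, edgeR adjusted p = 0.00136). Mrpl44, which carries a ribonuclease III-like fold, was at 20.3, 20.8 and 25.3 CPM at P1 and at 48.9, 48.5 and 41.6 CPM at 4W. The change of Mrpl44 was 2.09-fold (log2 1.06 ± 0.16, edgeR adjusted p = 0.000112) and its 4W samples lay within 41.6 and 48.9 CPM. Mrpl51, a mitochondria-specific protein of the large subunit, went from 70.3, 61.6 and 62.3 CPM to 105.3, 164 and 118 CPM (log2 1.00 ± 0.19, edgeR adjusted p = 0.00133). In Mrpl55 and Mrpl51 alike the 4W replicate 2 heart was the highest of its age.

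**Figure D2:**
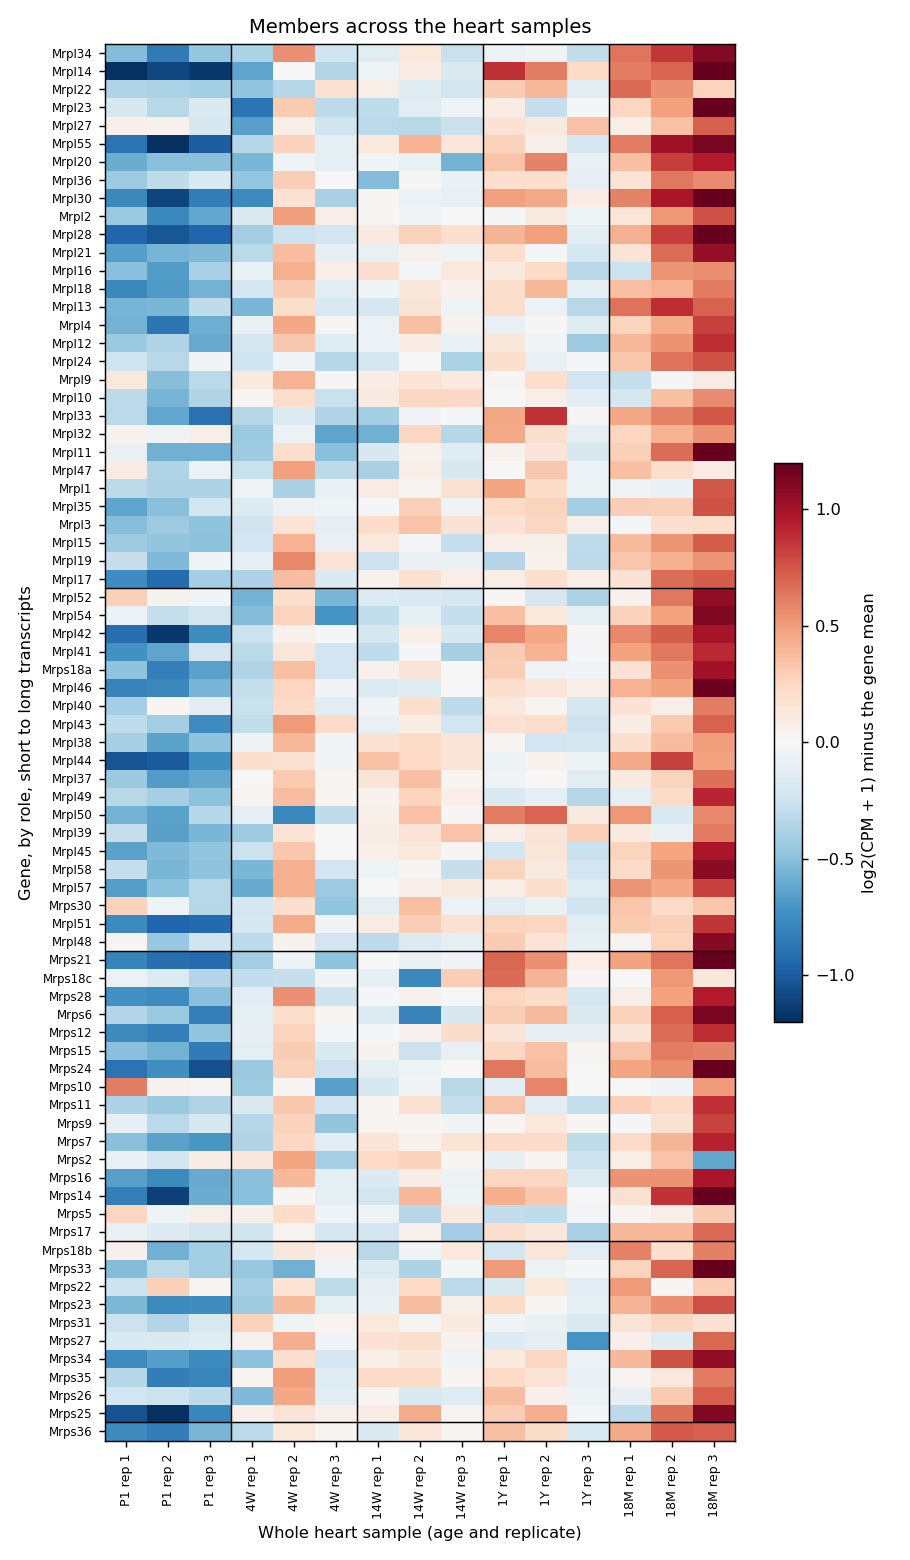
Level of each member in each whole heart sample as the log2 difference from its mean over the 15 hearts, with samples in columns by age and members in rows. Most members were lowest at P1 and highest at 18M, the 4W replicate 2 and 18M replicate 3 hearts were the highest of their ages, and on library sizes without scaling the difference between P1 and 4W turned its sign for the median member.

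Some members of known role passed the threshold from P1 to 4W and others did not. Mrpl3 (log2 0.43) and Mrpl10 (0.42) lay on opposite sides of it, and these groups were not tested against each other. Mrps12, the protein of the decoding centre, rose from 28.8 ± 3.98 CPM at P1 to 48.5 ± 6.69 CPM at 4W (SD, n = 3 each; log2 fold change 0.75 ± 0.19, edgeR adjusted p = 0.0099). Mrpl2, which lies near the peptidyl transferase centre, rose by a log2 fold change of 0.78 ± 0.18 (edgeR adjusted p = 0.00561), and Mrpl45, which faces the inner membrane near the exit tunnel, by 0.60 ± 0.19 (adjusted p = 0.0394). Mrpl3 rose from 49.4 ± 1.17 to 66.6 ± 9.92 CPM (log2 0.43 ± 0.14, edgeR adjusted p = 0.0396), but its log2 difference was -0.08 on library sizes without scaling. Of the 28 early calls 2, Mrpl44 (log2 0.55) and Mrpl55 (0.60), held on library sizes without scaling, while Mrps25 (0.62), Mrpl51 (0.49), Mrps12 (0.25), Mrpl2 (0.28) and Mrpl45 (0.09) were among those that did not. Mrps5, Mrps22 and Mrps30 were not called between any pair of ages on TMM-scaled library sizes, but without scaling all 3 were called lower from P1 to 4W (-0.53, -0.72 and -0.64). Mrps5, a small-subunit protein with a bacterial counterpart, was at 45.6 ± 5.13 CPM at P1, 45.1 ± 4.38 at 4W, 40.2 ± 6.43 at 14W, 36.9 ± 4.19 at 1Y and 47.0 ± 5.05 CPM at 18M (SD, n = 3 each). The stalk proteins Mrpl10 and Mrpl11 had log2 differences of 0.42 ± 0.19 (edgeR adjusted p = 0.137) and 0.20 ± 0.25 (adjusted p = 0.654) from P1 to 4W.

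The number of early calls depended on single libraries. In the 4W replicate 2 heart the members lay 0.23 above their mean over all hearts on the log2 scale (median over members), while those of the other 4W hearts lay 0.30 and 0.13 below it. Without that heart 11 members were called, all of them among the 28, and the median log2 fold change was 0.31. Leaving out P1 replicate 1, 2 or 3 gave 16, 12 or 14 calls, and leaving out 18M replicate 3 gave 36.

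The second interval of change was from 14W to 18M, when 30 members rose and their median log2 fold change was 0.55. Mrps6, a small-subunit protein with a bacterial counterpart, was at 13.2, 8.08 and 12.9 CPM at 14W and at 18.2, 25.1 and 34.1 CPM at 18M (2.26-fold, log2 fold change 1.18 ± 0.28, edgeR adjusted p = 0.011). Mrps33, which is specific to mitochondria, was at 12.6, 10.8 and 14.1 CPM at 14W and at 17.4, 23.8 and 41.0 CPM at 18M (2.19-fold, log2 1.13 ± 0.30, edgeR adjusted p = 0.0193). In both genes the age groups did not overlap, where 13.3% of all genes tested lay wholly above 14W at 18M. The highest sample of both was 18M replicate 3. Mrpl14, a large-subunit protein with a bacterial counterpart, was at 70.0, 77.9 and 64.6 CPM at 14W, 134, 112 and 85.9 CPM at 1Y and 112, 118 and 229 CPM at 18M. The rise of Mrpl14 from 14W was 2.16-fold (log2 1.11 ± 0.25, edgeR adjusted p = 0.00827). Its 1Y hearts already lay above the 14W hearts, as in 12.2% of all genes tested. Mrpl23, a protein at the exit tunnel, was at 14.2, 16.2 and 17.2 CPM and then at 21.5, 25.4 and 53.0 CPM (2.1-fold, log2 1.07 ± 0.33, edgeR adjusted p = 0.041), with the largest step in 18M replicate 3 again.

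Of the members of known role, Mrpl24, another exit tunnel protein, rose from 59.7 ± 8.17 CPM at 14W to 103.2 ± 16.0 CPM at 18M (SD, n = 3 each; log2 fold change 0.79 ± 0.16, edgeR adjusted p = 0.00481) after a log2 difference of -0.01 ± 0.16 between P1 and 4W. Mrpl11 rose by 0.92 ± 0.25 on the log2 scale (edgeR adjusted p = 0.023), Mrpl41 by 0.93 ± 0.19 (adjusted p = 0.00541) and Mrpl12 by 0.64 ± 0.18 (adjusted p = 0.0277). The levels of Mrpl12 were 196, 208 and 175 CPM at P1 and 351, 387 and 492 CPM at 18M. Mrpl3 had a log2 difference of -0.11 ± 0.14 (adjusted p = 0.676) and Mrpl10 of 0.08 ± 0.19 (adjusted p = 0.859) from 14W to 18M. Large-subunit genes were called higher in 21 of 50 cases (median 0.60) and small-subunit genes in 8 of 26 (median 0.49).

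Like the early calls, the late calls depended on single libraries. Without 18M replicate 3, 9 members were called higher (median log2 fold change 0.40), and without 14W replicate 1, 2 or 3 the count was 10, 14 or 8. The 18M hearts expressed Xist at 34.8 to 129 CPM and Ddx3y at 0.0368 to 0.397 CPM, whereas the 14W and 1Y hearts had Xist at 0.125 to 0.570 CPM and Ddx3y at 35.5 to 99.0 CPM, so sex and age cannot be told apart between these groups. In fibroblasts Xist was at 424.3 to 429.5 CPM and Ddx3y at 0.0468 to 0.0813 CPM at 18M, against 0.0173 to 0.315 and 71.7 to 83.3 CPM at 14W and 1Y, while all P1 and 4W samples of both tissues held both transcripts. The same limit therefore applies to fibroblast comparisons that cross these ages and to the late difference between tissues. P1 hearts held Ddx3y at 4.58 to 26.6 CPM, unlike 18M hearts, and 4W hearts held Xist at 6.48 to 140.5 CPM, unlike 14W hearts. Heart comparisons of P1 with 18M and of 4W with 14W, and the tissue difference from P1 to 18M, therefore carry this limit too. P1 hearts held Xist at 124.3 to 334.2 CPM and 4W hearts held Ddx3y at 1.64 to 33.9 CPM. The 4W replicate 2 heart had Xist at 6.48 and Ddx3y at 6.42 CPM. Both transcripts thus varied between and within P1 and 4W hearts as well, and the part of sex in the early comparison was not tested.

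Transcript length was compared because the members are short. The 77 members without pseudogene symbols have annotated transcripts of 418 to 7300 bases with a median of 1339, against a median of 2665 over all genes tested in hearts, and coding lengths of 261 to 1326 bases. From P1 to 4W the other 11917 genes of like length (638 to 4162 bases) had a median log2 fold change of -0.07, and the 2878 of like length and like level had 0.12, both below the members' 0.43. With members divided by length into 3 classes (418 to 1068, 1079 to 2080 and 2114 to 7300 bases) their medians were 0.61, 0.52 and 0.38, and those of other genes in the same length ranges were -0.07, -0.03 and -0.10. When a smooth trend of fold change on transcript length was taken out, 32 members were called higher between P1 and 4W, where 12.7% of all genes were, and Mrpl52 and Mrps10 were called lower, with 26 calls shared with the 28 and a median of 0.38.

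From 14W to 18M the background was not flat. In the shortest of these classes other genes stood at a median log2 of 0.61 and at 0.29 in the middle one, while their median was -0.22 in the longest. The members' medians in these classes were 0.73, 0.39 and 0.46. Transcripts over 5000 bases had a median of -0.65, with 713 of 2783 called lower. Over the whole window of like length other genes stood at 0.08, and at 0.29 when the window was set by coding length. With the length trend taken out the members' median was 0.11 (all genes -0.00) and 7 members were called higher, where 2.05% of all genes were, namely Mrpl11, Mrpl15, Mrpl17, Mrpl19, Mrpl48, Mrps16 and Mrps17, of which 5 were among the 30. Mrps6 then had a log2 fold change of 0.48 (edgeR adjusted p = 0.249) and Mrpl14 of 0.28 (adjusted p = 0.325). The lengths are those of annotated transcripts, and which isoform was present was not tested.

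**Figure D3:**
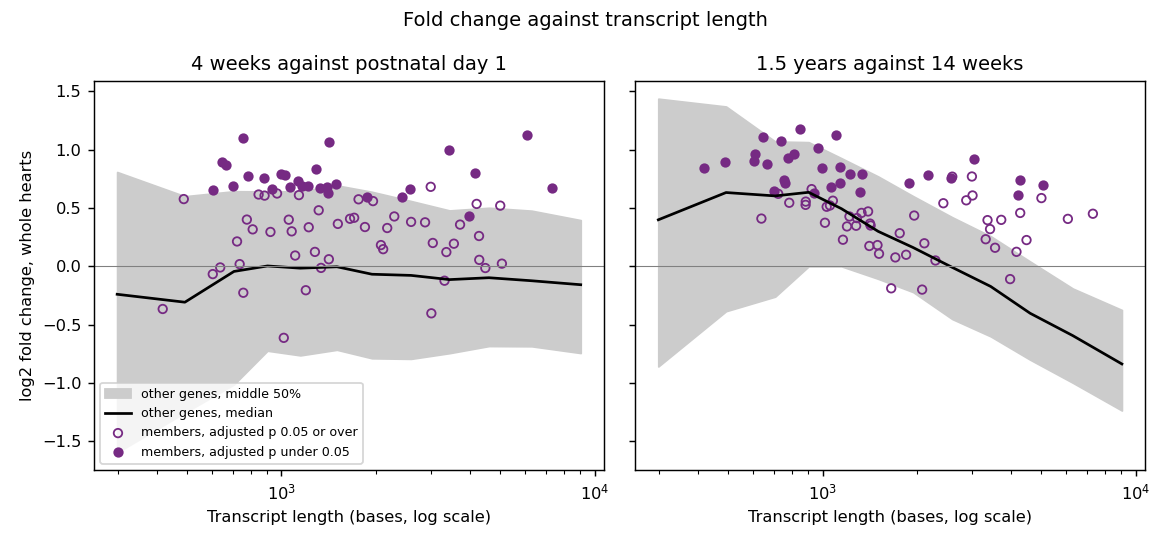
Log2 fold change against transcript length (bases, log axis) in whole hearts, from P1 to 4W and from 14W to 18M; points are members, and the line and band are the median and quartiles of other genes in length bins. In the left panel members lay above a nearly flat line (their median was -0.07 on library sizes without scaling), and in the right panel the line itself fell from short to long transcripts.

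The same gradient stood out library by library. Measured as the median log2 difference from the mean over all hearts, members in the 18M hearts lay at 0.29, 0.49 and 0.78, genes shorter than 1000 bases at 0.34, 0.56 and 0.88, and genes longer than 5000 bases at -0.14, -0.50 and -0.84 in replicates 1, 2 and 3. The 3 hearts thus kept the same order for members and short genes and the reverse order for long genes. In the P1 hearts the members lay at -0.45, -0.56 and -0.48, whereas short genes were between -0.25 and -0.11. In the 4W hearts members lay at -0.30, 0.23 and -0.13, short genes at -0.35, 0.11 and -0.15 and long genes at 0.43, -0.09 and 0.27. The 4W replicate 2 heart, on which many early calls depended, was thus highest of its age for members and short genes and lowest for long genes. RNA integrity is not given in the labels, and its part in the length gradient was not tested.

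Over the whole course from P1 to 18M the members' median log2 fold change was 1.09, with a range from -0.27 to 2.28, while other genes of like length stood at 0.02 and all genes at -0.15. Mrpl14 rose most, from 28.9, 33.7 and 32.2 CPM at P1 to the 18M values above (4.85-fold, log2 fold change 2.28 ± 0.26, edgeR adjusted p = 5.31e-06). Mrpl55 reached 112, 148 and 162 CPM (4.24-fold, log2 2.08 ± 0.22, edgeR adjusted p = 2.26e-06). Mrpl42, the member with the highest level, went from 186, 157 and 210 CPM at P1 to 294, 366 and 348 CPM at 4W, stayed at 305, 372 and 308 CPM at 14W, and was at 530, 487 and 355 CPM at 1Y and at 523, 583 and 698 CPM at 18M. Both of its steps were called, with log2 fold changes of 0.87 ± 0.17 (edgeR adjusted p = 0.0018) from P1 to 4W and 0.87 ± 0.17 (adjusted p = 0.00403) from 14W to 18M. With the length trend taken out the median over members was 0.58. On library sizes without scaling it was 0.48, with 36 members higher and 2 lower, where 1377 of 17995 genes tested were higher and 5946 lower.

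Between 1Y and 18M 5 members were called higher, Mrpl12, Mrpl13, Mrpl34, Mrpl44 and Mrpl55, against 0.834% of all genes. All 5 are large-subunit genes, and the largest log2 fold change was that of Mrpl34 (1.02 ± 0.22, edgeR adjusted p = 0.0289). The median over members was 0.45, and 41 members had an unadjusted p below 0.05. DESeq2 called 26. Between 4W and 14W the median was 0.06, with 3 members at an unadjusted p below 0.05 and 0 called by DESeq2, and between 14W and 1Y it was 0.03, with 9 and 0.

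In hearts 11 of 81 members rose in both intervals of change, where 1.17% of all genes did, and 47 in either, where 15.8% did. Those in both were Mrpl14, Mrpl28, Mrpl34, Mrpl42, Mrpl46, Mrpl55, Mrps15, Mrps16, Mrps24, Mrps34 and Mrps36. Of these 11, Mrps16 alone kept its late call with the length trend taken out. Mrpl55 alone kept its early call on library sizes without scaling, so none kept its calls under both settings. Mrps36, the dehydrogenase component, went from 28.3 ± 3.06 CPM at P1 to 45.5 ± 7.36 at 4W, 47.0 ± 5.29 at 14W and 73.6 ± 8.05 CPM at 18M (SD, n = 3 each), although with the length trend taken out its late difference was -0.09 on the log2 scale. Mrps34 and Mrps16, which have both been linked to inherited defects of mitochondrial translation, rose by log2 fold changes of 0.60 ± 0.19 and 0.66 ± 0.21 early and 0.72 ± 0.19 and 0.76 ± 0.21 late.

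Promoter sequences of RefSeq on GRCm38.p6, from 250 bases before to 50 bases after the start, were matched to 68 members by symbol. They were searched on both strands for letters of factors known to act at nuclear genes of mitochondrial proteins, namely NRF1 (GCATGCGC), the ETS family (CCGGAAG) and YY1 (AAGATGGCG), where the ETS and YY1 letters can overlap at AAG. NRF1 letters stood in 8 member promoters (11.8%) and in 4.7% of the 12951 promoters matched to the count tables, ETS letters in 24 (35.3%) and in 15.4%, and YY1 letters in 8 (11.8%) and in 2.6%. The E-box (CACGTG) was in 7.4% of member promoters and 9.4% of all, and the TATA box (TATAAA) in 5.9% and 8.0%. Median GC content was 58.2% in members and 60.0% in all. Of the 10 promoters of members that rose in both intervals, 0 held NRF1, 2 held ETS and 2 held YY1 letters, and of 29 promoters of members that rose in neither, 6, 9 and 5 did. The 150 bases before the start are shown 5′ to 3′ on the gene's strand for the 2 members with the largest rise from P1 to 18M, Mrpl14 (chr17:45686199-45686348, plus strand) and Mrpl55 (chr11:59202336-59202485, plus strand), for Mrps16, which rose in both intervals (chr14:20393491-20393640, minus strand), and for Mrpl32, chosen for its letters after they were seen (chr13:14613038-14613187, minus strand). Capitals mark letters of NRF1, ETS or YY1.
Mrpl14: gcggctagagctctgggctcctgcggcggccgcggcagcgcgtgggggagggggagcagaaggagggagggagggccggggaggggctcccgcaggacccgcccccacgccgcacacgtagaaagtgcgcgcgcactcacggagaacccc
Mrpl55: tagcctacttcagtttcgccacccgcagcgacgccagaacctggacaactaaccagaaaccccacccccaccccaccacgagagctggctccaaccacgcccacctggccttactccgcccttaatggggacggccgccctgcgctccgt
Mrps16: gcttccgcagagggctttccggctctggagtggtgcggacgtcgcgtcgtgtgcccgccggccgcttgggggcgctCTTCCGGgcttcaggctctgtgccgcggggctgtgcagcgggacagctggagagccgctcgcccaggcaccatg
Mrpl32: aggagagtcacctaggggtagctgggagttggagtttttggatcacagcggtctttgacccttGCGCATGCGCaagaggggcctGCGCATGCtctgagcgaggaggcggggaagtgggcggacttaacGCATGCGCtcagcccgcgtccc
The stretches of Mrpl14 and Mrpl55 hold none of these letters, that of Mrps16 holds ETS letters, and that of Mrpl32 holds 4 matches to NRF1, of which a pair overlaps. Mrpl32 itself was called in neither interval. A match describes the letters and does not show binding.

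In sorted fibroblasts few members changed. From P1 to 4W 1 of 79 members was called higher and 3 lower, against 9.28% of all genes higher and 6.2% lower, and the median log2 fold change over members was -0.23, where all genes stood at 0.00. Mrps25 was the member called higher, from 5.37, 4.07 and 3.51 CPM at P1 to 10.3, 9.24 and 10.6 CPM at 4W (2.33-fold, log2 fold change 1.22 ± 0.30, edgeR adjusted p = 0.0146). It was thus the largest early rise of both tissues, and its later samples were at 10.8 CPM or more. Mrps28, a small-subunit protein with a bacterial counterpart, fell from 13.2, 14.7 and 19.6 CPM to 8.09, 6.22 and 6.14 CPM (log2 -1.22 ± 0.29, edgeR adjusted p = 0.0131). Mrps27, a pentatricopeptide repeat protein of the small subunit, fell from 18.2, 22.6 and 18.2 CPM to 7.31, 10.7 and 7.96 CPM (log2 -1.18 ± 0.28, edgeR adjusted p = 0.0108). Mrps35 fell from 17.6, 15.7 and 20.9 CPM to 9.24, 12.2 and 6.75 CPM (log2 -0.94 ± 0.30, edgeR adjusted p = 0.0496). In all 4 genes the age groups did not overlap. Of all genes tested, 15.1% lay wholly above P1 at 4W and 13.4% wholly below.

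At later ages the only fibroblast call between neighbouring ages was Mrpl54, a mitochondria-specific protein of the large subunit. It was at 18.8, 17.4 and 15.1 CPM at 4W, at 6.68 and 8.20 CPM at 14W and at 15.7 and 13.4 CPM at 1Y, and the fall from 4W to 14W had a log2 fold change of -1.201 ± 0.265 (edgeR adjusted p = 0.026). Of all genes 1.79% were higher and 2.08% lower in that interval. Markers of other cells also moved, since summed endothelial markers were at 273.4 to 1439 CPM at 4W, 938.8 to 1203 at 14W and 225.3 to 416.6 at 1Y, and mural markers at 62.5 to 164.1, 322.5 to 444 and 236.3 to 251.1 CPM. Leukocyte markers were at 192 to 274.1, 23.2 to 32.1 and 14.3 to 14.8 CPM and erythroid markers at 3.85 to 21.98, 20.1 to 20.6 and 15.6 to 16.9 CPM, with no marker of these lists at 0, and their part in the dip of Mrpl54 was not tested. Xist and Ddx3y moved between these ages too, as given above. No member was called from 14W to 1Y (1.31% of all genes higher, 7 members at an unadjusted p below 0.05, 3 by DESeq2), from 14W to 18M (1.91% higher, 5 and 3) or from 1Y to 18M (1 and 0). Few of the 18759 genes tested were called in these intervals either. Lower calls numbered 89 and 153 in the first and second, and the last had 18 higher and 27 lower. From P1 to 18M Mrps25 was called higher (log2 1.53 ± 0.33, edgeR adjusted p = 0.00567) and Mrpl22, an exit tunnel protein, and Mrpl54 lower, by log2 fold changes of -1.71 ± 0.49 (adjusted p = 0.0302) and -0.96 ± 0.26 (adjusted p = 0.0248), against 9.86% of all genes higher and 6.46% lower. The members called over all ages were Mrpl54, Mrps24, Mrps25, Mrps27, Mrps28 and Mrps30. The fibroblast groups at 14W, 1Y and 18M had 2 samples each and members were at lower levels there than in hearts.

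Whether the tissues changed differently was tested as an interaction in 1 fit of all 27 samples. This fit did not pair fibroblasts with the heart of the same age and replicate number, and a fit with such a block called 3 early differences. From P1 to 4W 14 members had a lower change in fibroblasts than in hearts, against 3.96% of all genes, and the median difference over members was -0.62, where that over all genes was 0.17. Mrps28 differed most, since it fell in fibroblasts and rose in hearts from 32.0, 31.5 and 37.6 CPM to 49.0, 78.8 and 44.9 CPM (difference -1.99 ± 0.34 on the log2 scale, edgeR adjusted p = 0.000467). Mrps35 differed by -1.74 ± 0.32 (edgeR adjusted p = 0.0011), having risen in hearts by 0.80 ± 0.20. Mrps27 differed by -1.52 ± 0.31 (edgeR adjusted p = 0.00291), although its own difference in hearts was 0.34 ± 0.22 (adjusted p = 0.315). From 14W to 18M 3 members had a lower change in fibroblasts, against 0.794% of all genes. The largest was that of Mrps33, which was at 12.3 and 8.36 CPM in 14W fibroblasts and at 3.25 and 3.51 CPM at 18M while it rose in hearts (difference -2.76 ± 0.56, edgeR adjusted p = 0.0083). Fibroblast means of Mrps33 were 2.57 CPM at P1, 5.01 at 4W and 2.68 at 1Y, so the 14W samples stood above all other ages. From P1 to 18M the count was 46, against 5.77% of all genes, with a median difference of -1.36 where that of all genes was 0.32.

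**Figure D4:**
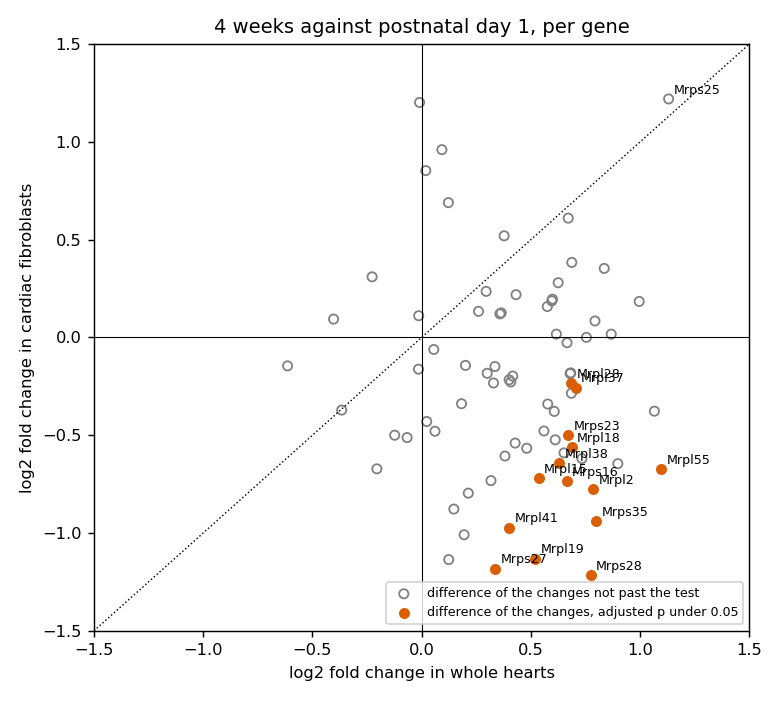
Log2 fold change of each member without a pseudogene symbol in fibroblasts (vertical axis) against that in whole hearts (horizontal axis), from P1 to 4W. Filled points are the 14 members whose change differed between the tissues. Members spread to the right of 0 in hearts and about or below 0 in fibroblasts, and on library sizes without scaling the heart median from P1 to 4W was -0.07.

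Members were lower in fibroblasts than in hearts at every age. At P1, 4W, 14W, 1Y and 18M 75, 76, 75, 76 and 79 of 81 were called lower and 0 higher, where 18.7%, 18.6%, 17.7%, 15.7% and 17.9% of all genes were lower. The median log2 difference over members was -1.81 at P1, -2.57 at 4W, -2.67 at 14W, -2.46 at 1Y and -3.19 at 18M. At 18M the difference was -5.52 ± 0.45 for Mrpl46, a mitochondria-specific protein of the large subunit, -5.29 for Mrpl44 and -4.998 ± 0.27 for Mrpl42. The smallest of the called differences was that of Mrps5, at -1.24 ± 0.20. Mrpl42 was between 14.2 and 27.7 CPM in fibroblasts of all ages. The members not called at P1 were Mrpl33, Mrps6, Mrps18c and the pseudogenes Mrpl23-ps1, Mrpl48-ps and Mrps36-ps1, and at 18M Mrps18c and Mrps36-ps2. A CPM value is a share of the RNA of its own tissue, and how much RNA a cell held was not measured.

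Lists of other genes of the organelle and of the cytosolic ribosome were read in the same fits, beside 12.1% of all genes higher from P1 to 4W and 4.91% from 14W to 18M. Among nuclear-encoded respiratory chain and ATP synthase subunits in hearts, 61 of 85 rose and 2 fell from P1 to 4W (median log2 fold change 0.81), and 55 rose and 2 fell from 14W to 18M (median 0.76), so both medians were above those of the members. Genes of the cytosolic ribosome, the counterpart outside mitochondria, went another way early, with 1 of 88 higher and 21 lower (median -0.40), and together with the members late, with 77 higher and 0 lower (median 1.14). Of the 26 genes of the mitochondrial genome 12 rose and 1 fell early (median 1.46), and 0 rose and 3 fell late (median -0.64). On library sizes without scaling the median of all genes was -0.60 early and 0.09 late, in place of -0.09 and -0.03, so these list values are relative to the typical gene. Late fold changes in hearts also followed transcript length, with other genes at medians of 0.604 (median length 706 bases) and -0.403 (4602 bases). These list medians, and those of the lists below, carry no correction for length.

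The following are genes that act with the mitochondrial ribosome. Of 5 further ribosomal proteins that carry other symbols 3 rose early (median 0.61) and 2 late (median 0.42). Of all genes tested in hearts 12.1% rose and 6.1% fell early and 4.91% rose and 7.86% fell late, and several of these short lists lie near those shares. Of 22 assembly factors 5 rose and 0 fell early (median 0.32), and 1 rose and 1 fell late (median 0.18). Translation factors of the organelle (13 genes) numbered 5 higher and 0 lower early (median 0.18) and 0 higher and 2 lower late (median -0.19), and mitochondrial tRNA synthetases (17) 4 and 1 early (median 0.49) and 1 and 2 late (median -0.08). Of 13 genes of mitochondrial transcription and RNA processing 2 rose early and 1 fell late (medians 0.24 and -0.12). In fibroblasts from P1 to 4W, where 6.2% of all genes fell, 15 of 83 respiratory chain genes fell and 0 rose (median -0.35), 74 of 87 cytosolic ribosome genes fell and 0 rose (median -0.80), and 10 of 26 genes of the mitochondrial genome fell and 0 rose (median -1.38), beside the members' median of -0.23.

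**Figure D5:**
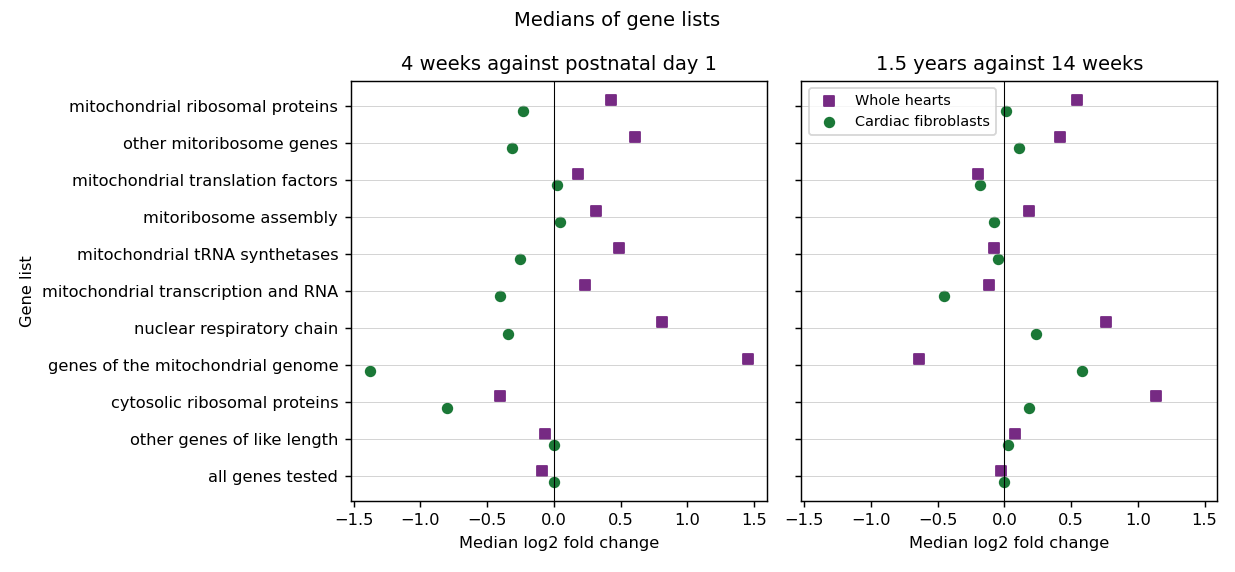
Median log2 fold change of the members and of related gene lists in whole hearts and in fibroblasts, from P1 to 4W and from 14W to 18M, with all genes tested for reference. Respiratory chain genes and members shared a direction in hearts, cytosolic ribosome genes rose late and not early, and mitochondrial genome genes rose early and not late. On library sizes without scaling the heart median of members from P1 to 4W was -0.07. The medians carry no correction for transcript length.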

How the data were processed

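RNA was extracted from PDGFRα-sorted cardiac fibroblasts (12 samples) and whole hearts (15 samples) of C57Bl/6 mice, selected for poly(A) and sequenced single-end. The authors aligned reads with STAR (2.5.3a, per the submitters' processing notes) to mm10 and deposited raw read counts per gene, 1 table per tissue. The strand setting and gene annotation are not given in the sources used here, so overlapping and antisense genes cannot be told apart from members.

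From these counts, genes passing filterByExpr were tested with edgeR (4.0.16, quasi-likelihood F test, TMM scaling, Benjamini-Hochberg adjustment over all genes tested, threshold 0.05) in 1 fit per tissue over 5 ages, and in 1 fit of all 27 samples for the difference between tissues. Comparisons of ages share samples. Alternatives were DESeq2 (1.42.0), RLE size factors, library size only, other filters on low counts (none, or at least 10 counts in every sample), offsets for transcript length, for merged exon length or for length with GC content (a smooth trend taken out per sample), only the 2 ages compared, a replicate block, and each sample left out. Lengths came from GENCODE M21 (GRCm38), promoters from RefSeq. The like-length window ran from the 10th to the 90th percentile of member lengths. The fits were tested on simulated data with 200 changed genes. Counts of 54615898 to 76758831 (fibroblasts) and 46091271 to 67984404 (hearts) per sample set the precision, and intervals cover counting error and sample spread only as far as 2 or 3 samples a group allow.

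Members and gene lists were chosen with earlier results of these data known. Genes were named by this rule: per tissue, the 4 largest rises and falls among members called between P1 and 4W and between 14W and 18M; the 3 highest and 3 lowest per kilobase; members with a known role; up to 6 with the smallest adjusted p for a difference between tissues in these intervals; the 3 longest and 3 shortest; and pseudogene symbols. Mrpl54, Mrpl22 in the fibroblast comparisons, Mrpl13, Mrpl34, Mrpl32, the members called under the length offset and those higher in both intervals were named after their values were seen, as was the comparison of 18M with 1Y.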

Additional observations from a re-analysis of the deposited data

Results flagged for a closer look

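Results were marked where the change with age differed between the tissues by the interaction test. From P1 to 4W 14 members were called, all with the lower change in fibroblasts. The 6 with the smallest adjusted p had differences (fibroblasts minus hearts, log2) of -1.99 for Mrps28, -1.74 for Mrps35, -1.52 for Mrps27, -1.40 for Mrps16, -1.56 for Mrpl2 and -1.17 for Mrps23. Mrps28 and Mrps35 were called in opposite directions in the 2 tissues, whereas Mrps27 was called in fibroblasts only and Mrpl2 and Mrps23 in hearts only. From 14W to 18M 3 members were called, Mrps33 (-2.76), Mrpl46 (-1.94) and Mrpl22 (-1.73), none of which was called in fibroblasts alone. From P1 to 18M the number was 46. Summed cardiomyocyte markers in the sorted fibroblasts went from 646.5 to 701.4 CPM at P1 to 59.04 to 164.5 CPM at 4W, and their part in the early differences was not tested.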

How the results depend on the processing

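Scaling changed the early heart result. On library sizes only, 11 members were called from P1 to 4W with a median of -0.072, Mrpl3 was at -0.077, 38 members were called from P1 to 18M, and differences between tissues numbered 4 (P1 to 4W), 7 (14W to 18M) and 29 (P1 to 18M). The members' share of counts without mitochondrial genome genes was 0.1321% in P1 fibroblasts and, in hearts, 0.5293% at P1, 0.5801% at 4W, 0.5844% at 14W, 0.6709% at 1Y and 0.8516% at 18M.

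Length mattered most late. From 14W to 18M in hearts 7 members were called with the length offset, 12 with merged exon lengths, 9 with length and GC, and 5 with block and length offset. Mrps36 was then at -0.093 (length), -0.028 (length and GC) and -0.09 (block and length). From 1Y to 18M the counts were 0 (length), 1 (merged exons), 1 (length and GC), 1 (block) and 0 (block and length). Length with GC gave 1 heart call from 4W to 14W, 0 fibroblast calls there and 1 difference between tissues late, as did length alone.

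DESeq2 called 12 fibroblast members over all ages, 7 from P1 to 4W, 3 from 14W to 1Y, 3 from 14W to 18M and 11 from P1 to 18M, 26 heart members from 1Y to 18M, and 32 and 6 differences between tissues early and late. At least 10 counts in every sample gave 47 heart calls from 14W to 18M and 16 from 1Y to 18M, 1 and 8 fibroblast calls from 14W and from P1 to 18M, and 22 and 6 differences between tissues. RLE factors gave 24 early differences and 6 fibroblast calls from P1 to 18M, where the length offsets gave 6 (length), 6 (length and GC) and 5 (merged exons) and library sizes only 10. With no filter 3 fibroblast members differed over all ages. Only the 2 ages gave, in fibroblasts, 1 (P1 to 4W), 0 (4W to 14W), 6 (14W to 1Y), 1 (14W to 18M) and 1 (P1 to 18M) and, in hearts, 3 (14W to 1Y) and 0 (1Y to 18M).

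Leaving out single samples gave, in fibroblasts, 2 to 5 members over all ages, 3 to 5 from P1 to 4W, 0 to 1 from 4W to 14W (median -0.059 without 4W replicate 3, up to 0.119), 0 to 1 from 14W to 18M (median -0.148 without 18M replicate 4) and 1 to 7 from P1 to 18M, and in hearts 47 to 65 over all ages, 11 to 36 from P1 to 4W, 8 to 43 from 14W to 18M, 55 to 66 from P1 to 18M and 0 to 24 from 1Y to 18M. Differences between tissues were 8 to 23, 1 to 5 and 25 to 55, and members lower in fibroblasts 72 to 76 (P1), 68 to 77 (14W) and 75 to 80 (18M). With heart 4W replicate 2 and 18M replicate 3 both left out, a choice made after seeing the data, 20 members were called from P1 to 4W (18 higher and 2 lower), 23 from 14W to 18M and 1 from 14W to 1Y.

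Across ages, samples of the same replicate number did not deviate together (correlations -0.0316 to 0.0356 in fibroblasts and -0.0619 to 0.102 in hearts). Fibroblasts and hearts of the same age and number at P1 and 4W had correlations of -0.0343 to 0.0171. The authors state that fibroblasts and the hearts that gave them were both sequenced, but the labels do not say which samples share an animal. These correlations cannot settle it. With a replicate block 24 heart members were called from P1 to 4W, 27 from 14W to 18M, 61 from P1 to 18M and 1 from 1Y to 18M, with 54 over all ages, 1 fibroblast member from P1 to 4W (also 1 with the length offset) and 3 early differences between tissues. Of 1449 refits of the 49 results for named genes, 1226 kept direction and side of the threshold, 219 lost the call and 4 reversed, and 15 genes' results held in every refit. Fibroblast calls of Mrps25, Mrps28 and Mrps35 were lost with the block or with only the 2 ages, while Mrps27 kept its call throughout. The 2 samples a group at later ages limit what fibroblasts could show.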
